A study of Mus musculus with 2 samples.

Results

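Spp1, Arg1, Mmp12, Lgals3, Fn1, Thbs1, Mrc1 and Cd44 are 8 genes that tumour macrophages use to make, cut or bind the matrix around them and to handle arginine. They were chosen by symbol from the 32285 feature rows (32245 symbols) of 2 single-cell RNA libraries, and all 8 were found in both. The Tdg_KO library (titled KPT) has the genotype label Tdg knockout and the Tdg_WT library (titled KP) the label wild type, with 1 library in each group. Both hold immune cells of tumours in mice, which the labels call allogroft tumours, taken on day 14 after inoculation, enriched over Percoll and sorted as live cells that carry CD45, a surface marker of leukocytes. The labels do not say whether tumour, host or both carry the Tdg genotype, and they give neither the age of the mice nor how many were used. Tdg encodes thymine DNA glycosylase, a DNA repair enzyme that also takes part in DNA demethylation.

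Macrophages are tissue phagocytes that can digest matrix, lay down new matrix and shape the arginine supply of neighbouring cells. Spp1 encodes osteopontin, a secreted matrix protein that binds integrins and CD44, and Arg1 encodes arginase 1, which splits arginine to ornithine and urea. Mmp12 is the macrophage elastase, a metalloproteinase. Lgals3 encodes galectin-3, a lectin that binds sugars with galactose. Fn1 encodes fibronectin and Thbs1 thrombospondin 1, matrix glycoproteins that bind integrins and, for thrombospondin 1, also CD36 and CD47. Mrc1 encodes the mannose receptor CD206, an endocytic receptor often used to mark resident or alternatively activated macrophages. Cd44 encodes a receptor for hyaluronan and osteopontin that is found on many white blood cells. Monocytes are the blood precursors of many tumour macrophages, and neutrophils are short-lived phagocytes.

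The genes lie apart in the genome (GRCm38, all protein coding). Spp1 is on chromosome 5 (104435118 to 104441050, plus strand), Arg1 on chromosome 10 (24915221 to 24927484, minus strand) and Mmp12 on chromosome 9 (7344381 to 7369499, plus strand). Lgals3 is on chromosome 14 (47367751 to 47386160, plus strand) and Fn1 on chromosome 1 (71585520 to 71653200, minus strand). Chromosome 2 carries Thbs1 (118111876 to 118127133, plus strand), Mrc1 (14229392 to 14332057, plus strand) and Cd44 (102811141 to 102901665, minus strand).

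RefSeq windows (GRCm38.p6) of the 250 bases before a transcript start were at hand for 5 of the 8 genes. Those of Spp1 and Mmp12, whose levels were both lower in the macrophage-like cells of Tdg_KO, and that of Mrc1, whose level was not, are shown. Each is written 5′ to 3′ on the strand of its gene, with AGGAAG in capitals, also where it reads CTTCCT on the other strand. These letters hold GGAA, the core of sites of the Ets family to which the macrophage factor PU.1 belongs, with A before and G after. Cores with other letters beside them occur in these windows and were neither marked nor counted. The window of Spp1 spans chr5:104434861-104435110 (plus strand), that of Mmp12 chr9:7344147-7344396 (plus strand) and that of Mrc1 chr2:14229164-14229413 (plus strand).
Spp1: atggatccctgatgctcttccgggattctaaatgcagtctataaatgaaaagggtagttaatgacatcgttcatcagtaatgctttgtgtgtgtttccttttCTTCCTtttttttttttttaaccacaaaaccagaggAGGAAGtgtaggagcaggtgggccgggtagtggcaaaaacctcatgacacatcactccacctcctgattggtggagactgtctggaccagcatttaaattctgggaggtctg
Mmp12: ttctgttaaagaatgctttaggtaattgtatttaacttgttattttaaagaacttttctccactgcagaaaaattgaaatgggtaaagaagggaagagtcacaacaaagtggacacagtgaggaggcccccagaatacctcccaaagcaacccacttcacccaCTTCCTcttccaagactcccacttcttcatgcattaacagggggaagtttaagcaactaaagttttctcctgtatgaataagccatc
Mrc1: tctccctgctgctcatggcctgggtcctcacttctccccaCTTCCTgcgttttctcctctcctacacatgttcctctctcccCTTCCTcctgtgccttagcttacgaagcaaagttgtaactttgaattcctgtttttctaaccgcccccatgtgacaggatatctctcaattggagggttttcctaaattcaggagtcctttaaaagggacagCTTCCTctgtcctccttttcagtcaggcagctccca
These letters occurred 2 times in the Spp1 window, 148 and 112 bases before the start, 1 time in that of Mmp12, 87 bases before it, and 3 times in that of Mrc1, at 210, 168 and 36 bases. Of all 32851 windows of this length, 29.48% held them on either strand. Neither TGANTCA, the letters of AP-1 sites (6.749% of windows), nor ACGTG, the core of hypoxia response elements (16.57%), was found in the windows shown. Spp1 and Mmp12 each have a second RefSeq start, and the window before that of Mmp12 held TGANTCA 44 bases before the start. The windows of Lgals3 and Cd44 were also at hand and are not shown. That of Lgals3, whose level was lower in the macrophage-like cells of Tdg_KO, held none of these runs of letters. That of Cd44, whose level was not, held AGGAAG or CTTCCT 221, 212 and 56 bases before the start and ACGTG 29 bases before it. A match is a run of letters and no measured site.

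The Tdg_KO library held 5896 barcodes with 52586319 UMIs, and the Tdg_WT library 5604 barcodes with 39819010 UMIs. A UMI (unique molecular identifier) counts 1 captured RNA molecule, read here near its 3′ end. After filtering, 5693 and 5504 cells were left, with medians of 6419 and 5378 UMIs in Tdg_KO and Tdg_WT. Cells were grouped without the 8 genes and named from markers. This gave 285 macrophage-like cells in Tdg_KO and 236 in Tdg_WT, 82 and 126 monocyte-like cells, and 237 and 685 neutrophil-like cells. All 10 macrophage markers (C1qa, Apoe and the like) were seen in at least 10% of macrophage-like cells of each library, and their summed level was 35291 CPM in Tdg_KO and 21366 CPM in Tdg_WT. CPM stands for the UMIs of a gene per 1e+06 UMIs of its cell class. Clusters in which at least 50% of barcodes held 3 or more genes each of T cells and phagocytes were left unnamed. They made up 11.2% of Tdg_KO and 5.89% of Tdg_WT cells. With clusters left unnamed for other reasons, 37.0% of Tdg_KO and 26.6% of Tdg_WT cells were in no named class.

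With 1 library per group, no test between the groups was possible, and whether separate tumours would differ by as much is not known. Each ratio is that of the CPM, Tdg_KO over Tdg_WT. The 95% intervals after ratios and shares cover counting error only. A gene is called lower or higher here where the ratio passes 1.5-fold and both libraries together hold at least 50 UMIs.

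In macrophage-like cells, 5 of the 8 genes were called lower in Tdg_KO and 0 higher, where 6.08% of the 3224 genes measured in this class were called lower and 16.2% higher. The 8 genes were chosen with earlier results of these data known, so this count is a description and no test. Spp1 and Arg1 had the lowest ratios of the 8. The median log2 ratio of the 8 genes was -0.68, beside 0.10 for all genes measured.

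Spp1 had 868 UMIs (872 CPM) in Tdg_KO and 3412 UMIs (3650.4 CPM) in Tdg_WT macrophage-like cells, a ratio of 0.239 (0.221 to 0.257). Arg1 had 839 CPM in Tdg_KO and 2101 CPM in Tdg_WT, a ratio of 0.399 (0.368 to 0.433). The secreted ligand and the enzyme were thus both lower in the knockout-labelled library by more than counting error. In Tdg_KO 1 barcode held 303 UMIs of Spp1, 34.9% of the class total, and in Tdg_WT the highest barcode held 427 UMIs, 12.5% of the total. Without the highest barcode of each library the Spp1 ratio was 0.178.

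Mmp12, the elastase, had 1935 CPM in Tdg_KO and 3249 CPM in Tdg_WT, a ratio of 0.595 (0.562 to 0.631). Lgals3 had the most UMIs of the 8, with 3086 CPM in Tdg_KO and 5008 CPM in Tdg_WT, a ratio of 0.616 (0.589 to 0.645). Fn1 had 376 CPM in Tdg_KO and 591 CPM in Tdg_WT, a ratio of 0.636 (0.556 to 0.727). The Fn1 call held under 7 of 16 other settings and was lost without the highest barcode of each library (ratio 0.694). These 3 genes differed less between the libraries than Spp1, whose interval lies below all of theirs.

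The other 3 genes stayed within 1.5-fold, with intervals that hold 1. Thbs1 had 67.3 CPM in Tdg_KO and 65.3 CPM in Tdg_WT (ratio 1.03, 0.718 to 1.48), from 67 and 61 UMIs. Mrc1 had 166 CPM in Tdg_KO and 132 CPM in Tdg_WT (ratio 1.26, 0.991 to 1.60). Cd44 had 134 and 137 CPM in Tdg_KO and Tdg_WT (ratio 0.976, 0.760 to 1.25). The Thbs1 ratio ranged from 0.404 to 1.81 over the other settings, past 1.5-fold lower in 2 of them and higher in 5.

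**Figure D1:**
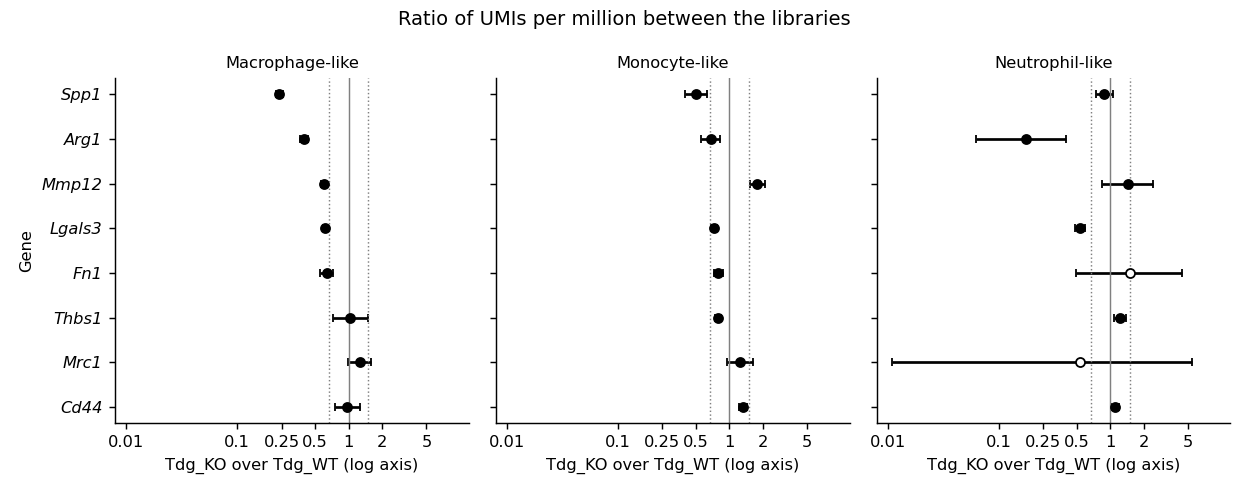
Ratio of CPM, Tdg_KO over Tdg_WT, for each gene (rows) in 3 cell classes (panels) on a log axis. Points are ratios, bars 95% intervals of counting error, open points genes under 50 UMIs, and dotted lines 1.5-fold either way. In macrophage-like cells 5 points lie left of the lower dotted line, with Spp1 at 0.239.

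Several measures of the macrophage-like cells moved with this difference. Their median depth was 2844 UMIs in Tdg_KO and 3615 in Tdg_WT, and their median mitochondrial share was 1.49% in Tdg_KO and 0.589% in Tdg_WT. Neutrophil markers summed to 640 CPM in Tdg_KO and 2154 CPM in Tdg_WT. Their part in the result was not tested. Markers of tumour and stromal cells were close to nil in both libraries, with 28.1 CPM in Tdg_KO and 27.8 CPM in Tdg_WT summed over 13 genes, and with Sftpc, Pdgfrb and Dcn at 0 in both.

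The macrophage-like class joined a pair of clusters, and Spp1, Arg1, Mmp12, Lgals3 and Fn1 were higher in one of them in each library. That one was led by Arg1, Spp1 and Mmp12 and, beyond the 8 genes, by Pf4, the metallothioneins Mt1 and Mt2 and the haem oxygenase Hmox1. The other was led by C1qb, C1qa, Apoe and Cxcl9. Macrophage markers were weaker in the Arg1-led cluster, where 9 of the 10 were seen in at least 10% of cells of each library. They summed there to 12085 CPM in Tdg_KO and 9371 CPM in Tdg_WT, beside 39766 and 32156.5 CPM in the C1qb-led cluster. The Arg1-led cluster made up 17.2% (13 to 22.1) of macrophage-like cells in Tdg_KO, 49 cells, and 46.6% (40.1 to 53.2) in Tdg_WT, 110 cells. The clusters were found without the 8 genes, but other genes that vary with them shaped the split, so the levels by cluster are a description.

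In the Arg1-led cluster the level of Arg1 was almost equal, at 3330.5 CPM in Tdg_KO and 3326 CPM in Tdg_WT (ratio 1.00, 0.905 to 1.11). Lgals3 had 7226 CPM in Tdg_KO and 7239 CPM in Tdg_WT (ratio 0.998, 0.933 to 1.07). Mmp12 and Fn1 had ratios of 0.898 and 0.922 there. Of the 8, Spp1 was the gene called lower in this cluster, with 4089 CPM in Tdg_KO and 6721 CPM in Tdg_WT (ratio 0.608, 0.558 to 0.662). In Tdg_KO 1 of the 49 barcodes gave 46.0% of those Spp1 UMIs. Without the highest barcode of each library the ratio was 0.401 (0.358 to 0.449).

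In the C1qb-led cluster Spp1 and Arg1 were called lower. Spp1 had 252 CPM in Tdg_KO and 888 CPM in Tdg_WT (ratio 0.283, 0.239 to 0.335), and Arg1 had 358 CPM in Tdg_KO and 999.9 CPM in Tdg_WT (ratio 0.358, 0.309 to 0.415). Mmp12 had 1449.9 CPM in Tdg_KO and 1715 CPM in Tdg_WT, a ratio of 0.845. Lgals3 and Fn1 had ratios of 0.762 and 0.731 and so stayed within 1.5-fold. Mrc1 was higher in this cluster than in the Arg1-led one in each library, at 187 CPM in Tdg_KO and 209 CPM in Tdg_WT here, and at 55.9 CPM in Tdg_KO and 45.2 CPM in Tdg_WT there.

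With each cluster given the same weight in both libraries, chosen after the data were seen, the ratio over macrophage-like cells was 0.535 for Spp1 and 0.746 for Arg1, and 1 of the 8 genes, Spp1, was called lower. For Mmp12, Lgals3 and Fn1 it was 0.875, 0.886 and 0.818. The lower levels of the 4 genes other than Spp1 thus came within 1.5-fold at equal cluster weights. Cells of the Arg1-led cluster held medians of 727 genes in Tdg_KO and 970 in Tdg_WT, beside 997 and 1117.5 in the C1qb-led cluster. Their median UMIs were 2275 in Tdg_KO and 3635.5 in Tdg_WT, beside 2964 and 3513.5, so they were shallower in Tdg_KO only. Ptprc, which encodes CD45, was seen in 18.4% of cells of the Arg1-led cluster in Tdg_KO and 25.5% in Tdg_WT, beside 49.6% and 39.7% in the C1qb-led one.

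**Figure D2:**
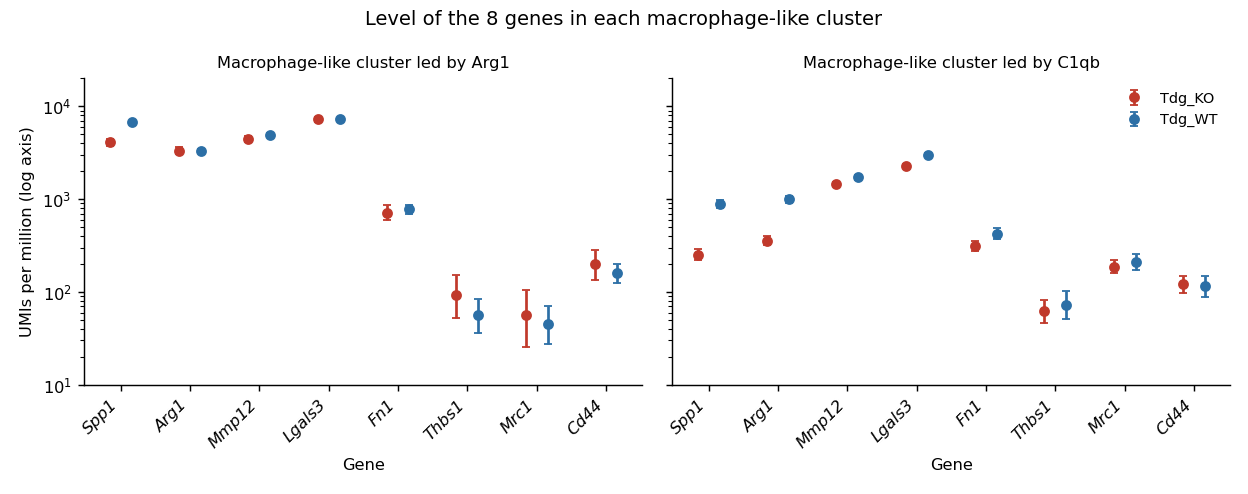
Level of each gene in CPM (log axis) in the Arg1-led (left) and C1qb-led (right) macrophage-like clusters, with Tdg_KO red and Tdg_WT blue. Bars are 95% intervals of counting error. Arg1 lies at 3330.5 and 3326 in the Arg1-led cluster of Tdg_KO and Tdg_WT, and at 358 and 999.9 in the C1qb-led cluster.

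A further cluster with macrophage markers was led by proliferation genes and was left unnamed, with 77 cells in Tdg_KO and 62 in Tdg_WT. Spp1 had 664 CPM there in Tdg_KO and 277 CPM in Tdg_WT, and Arg1 had 210.2 CPM in Tdg_KO and 83.9 CPM in Tdg_WT. In Tdg_KO 1 barcode gave 65.3% of the Spp1 and 71.9% of the Arg1 UMIs. Without the highest barcode of each library the ratios were 1.20 (0.889 to 1.61) for Spp1 and 0.880 (0.503 to 1.53) for Arg1. These cycling cells thus gave no direction for either gene. Also without the highest barcodes, Mmp12 was higher in Tdg_KO there, with 708 CPM beside 401 CPM in Tdg_WT (ratio 1.76, 1.46 to 2.14). Mrc1 had a ratio of 1.82 (1.002 to 3.41) there. Lgals3 and Fn1 had ratios of 1.03 and 1.385, with intervals that hold 1. With this cluster added to the macrophage-like cells, the Spp1 ratio was 0.312, the Arg1 ratio 0.437, and 3 of the 8 genes were called lower.

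The 8 genes were unevenly spread among macrophage-like cells. To compare cells, each was thinned to 1000 UMIs, which left out 14 shallower cells in Tdg_KO and 11 in Tdg_WT. Spp1 was then seen in 19.6% (15 to 24.8) of 271 cells in Tdg_KO and in 45.3% (38.7 to 52.1) of 225 cells in Tdg_WT. Arg1 was seen in 31.7% (26.2 to 37.6) in Tdg_KO and 53.8% (47.0 to 60.4) in Tdg_WT. The 2 genes were thus lower in Tdg_KO also as a share of cells. Unthinned, Spp1 was seen in 28.1% in Tdg_KO and 53.0% in Tdg_WT, and Arg1 in 39.3% and 61.9%.

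Mmp12 and Lgals3 were seen in most cells. Thinned, Mmp12 was in 54.6% in Tdg_KO and 66.7% in Tdg_WT, and Lgals3 in 79.7% and 90.7%. Fn1 was in 20.7% in Tdg_KO and 23.6% in Tdg_WT. Thbs1, Mrc1 and Cd44 lay between 4.43% and 10.7% in both libraries, close to 1 UMI in the cells that had any. T-like cells, used here as a background, had Spp1 in 0.464% in Tdg_KO and 0.565% in Tdg_WT after thinning, and Arg1 in 0.309% and 0.706%, from unthinned medians of 5928 and 5869 UMIs. The shares in macrophage-like cells were far above that background. By level, Spp1 was higher in NK-like cells, at 99.3 CPM in Tdg_KO and 123 CPM in Tdg_WT, than in T-like cells, at 10.6 and 11.8 CPM.

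A few cells carried much of the Spp1. At 1000 UMIs per cell, 10 or more Spp1 UMIs were found in 4 macrophage-like cells (1.48%) in Tdg_KO and in 27 cells in Tdg_WT. The highest cell had 34 Spp1 UMIs in Tdg_KO and 77 in Tdg_WT. For Arg1 10 or more UMIs were found in 4 cells in Tdg_KO and 6 in Tdg_WT. The upper tail of Spp1 was thus much thinner in Tdg_KO, while that of Arg1 was small in both. Unthinned, the highest 10% of cells held 87.6% of the Spp1 UMIs of the class in Tdg_KO and 71.1% in Tdg_WT, and for Lgals3 43.2% and 33.8%.

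**Figure D3:**
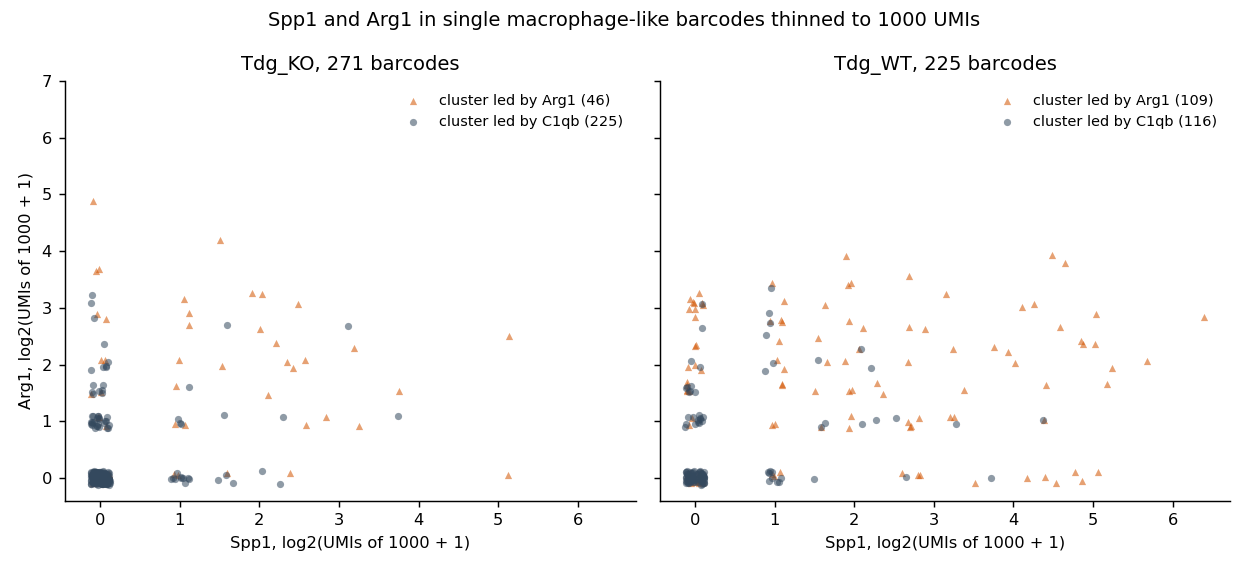
Each point is 1 macrophage-like barcode thinned to 1000 UMIs, with Spp1 (x) and Arg1 (y) as log2(UMIs + 1), points shifted slightly at random to show overlap, triangles for the Arg1-led and circles for the C1qb-led cluster. Of 271 barcodes in Tdg_KO (left) 33 had both genes, and of 225 in Tdg_WT (right) 77 had both.

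Spp1 and Arg1 were found in the same barcodes more often than the product of their shares. Both were seen in 12.2% (8.53 to 16.7) of macrophage-like cells in Tdg_KO, where the product was 6.21%, and in 34.2% (28.0 to 40.8) in Tdg_WT, where it was 24.4%. Of the cells with Spp1, 62.3% also had Arg1 in Tdg_KO and 75.5% in Tdg_WT. Within the clusters the excess was small in the Arg1-led one, with 1.06 and 1.10 times the product in Tdg_KO and Tdg_WT. It was 1.69 and 1.70 times the product in the C1qb-led one. Of the cells with both, 24 of 33 in Tdg_KO and 61 of 77 in Tdg_WT were in the Arg1-led cluster.

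Over the class, Mrc1 was seen with Spp1 less often than the product, at 1000 UMIs within counting error in Tdg_WT. Mrc1 was higher in the C1qb-led cluster and Spp1 in the Arg1-led one, and the part of this split was not tested. At 1000 UMIs no cell of 271 in Tdg_KO had a UMI of Spp1 and of Mrc1, which allows a share of up to 1.35%, and 7 of 225 cells did so in Tdg_WT (3.11%, 1.26 to 6.30), where the products were 2.02% and 4.63%. Unthinned, the pair was seen in 14 cells in Tdg_KO and 23 in Tdg_WT, 0.587 and 0.679 times the product. Thinned, Arg1 with Mrc1 was seen in 5 cells in Tdg_KO and 6 cells in Tdg_WT, 0.563 and 0.485 times the product. Unthinned it was seen in 31 and 34 cells, 0.928 and 0.859 times the product. Spp1 with Fn1 was seen, thinned, in 18 cells in Tdg_KO and 34 in Tdg_WT, 1.64 and 1.42 times the product, so that the pair of secreted integrin ligands tended to share cells. Over all 28 thinned pairs, 21 lay above the product in Tdg_KO and 19 in Tdg_WT.

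**Figure D4:**
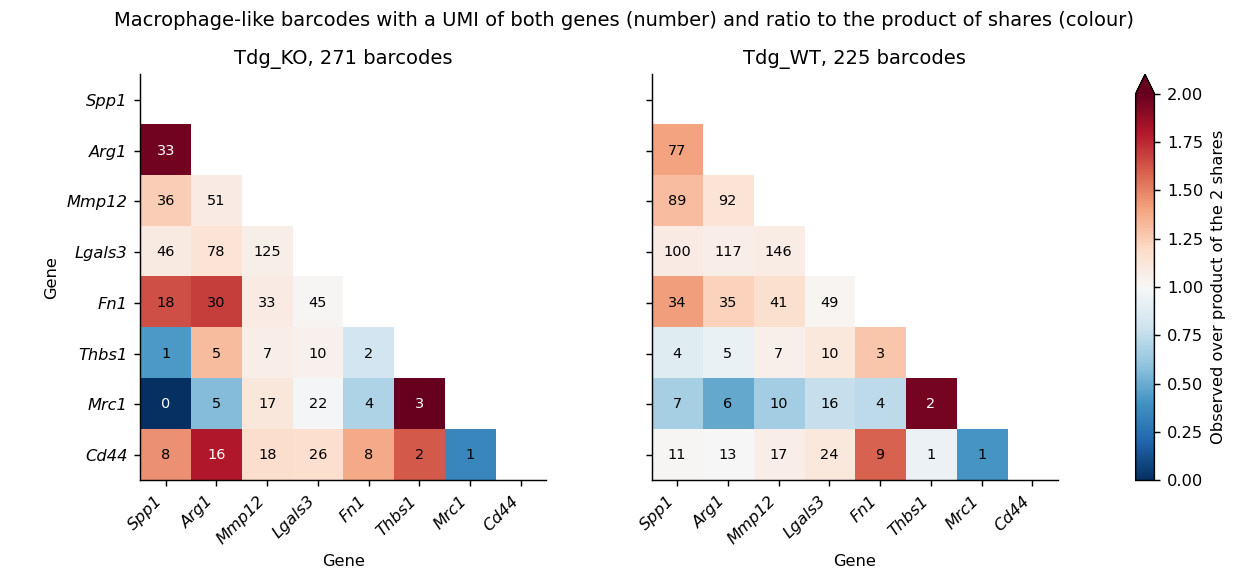
Pairs of the 8 genes in macrophage-like barcodes thinned to 1000 UMIs, Tdg_KO left and Tdg_WT right. Numbers are barcodes with a UMI of both genes and colour is their share over the product of the 2 single shares (red above 1, blue below 1). Spp1 with Arg1 is red in both (33 and 77 barcodes) and Spp1 with Mrc1 blue in both (0 and 7).

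Counted together, a median of 2 of the 8 genes was seen per thinned macrophage-like cell in Tdg_KO and of 3 in Tdg_WT. At least 5 of the 8 were seen in 6.27% of cells in Tdg_KO and 14.2% in Tdg_WT. Within the Arg1-led cluster that share was 26.1% in Tdg_KO and 25.7% in Tdg_WT, and within the C1qb-led cluster 2.22% and 3.45%. By this count the libraries differed less within a cluster than over the class. The Arg1 ratio, in contrast, was 0.358 in the C1qb-led and 1.001 in the Arg1-led cluster, beside 0.399 over the class.

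The genes whose level followed Spp1 most closely among macrophage-like cells, by the lower of the 2 libraries' Pearson correlations over 271 and 225 thinned cells, were Fth1, Prdx1, Arg1, Ftl1 and Cxcl3, out of 2431 genes. Fth1 and Ftl1 encode the chains of ferritin, Prdx1 is a peroxidase and Cxcl3 a chemokine. Their correlations were weak, at 0.355 in Tdg_KO and 0.361 in Tdg_WT for Fth1. For Arg1 the closest were Gapdh, Pgk1, Mt1, Mif and Vim, with 0.488 in Tdg_KO and 0.464 in Tdg_WT for Gapdh, a glycolytic enzyme as is Pgk1. Mrc1 ran the other way from both, with -0.14 in Tdg_KO and -0.12 in Tdg_WT against Spp1. All cells of a library share that library, so these values describe 2 libraries.

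Monocyte-like cells had a different profile, led by Thbs1, Lgals3, Cd44 and Fn1. Of the 8 genes 1 was called lower and 1 higher in Tdg_KO, where 5.12% and 10.6% of the 4435 genes measured in this class were called. Thbs1 had 1959 CPM in Tdg_KO and 2463 CPM in Tdg_WT (ratio 0.795, 0.749 to 0.844). Fn1 had 761 CPM in Tdg_KO and 957 CPM in Tdg_WT, with the same ratio of 0.795 (0.722 to 0.875). Both ratios moved with the settings: Thbs1 was past 1.5-fold lower with the mixed clusters named (0.622) and above 1 with a marker gate per barcode (1.07), and Fn1 was past 1.5-fold lower under 3 of 11 other settings. Cd44 had 1413 CPM in Tdg_KO and 1072 CPM in Tdg_WT (ratio 1.32, 1.22 to 1.43), and Lgals3 had 1601 and 2194 CPM in Tdg_KO and Tdg_WT (ratio 0.730, 0.684 to 0.778).

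Spp1 and Arg1 were low in monocyte-like cells and rested on few of them. Spp1 had 113 CPM in Tdg_KO and 225 CPM in Tdg_WT (ratio 0.503, 0.396 to 0.634), the gene called lower, and with the mixed clusters named it was 1.17. Arg1 had 179.8 CPM in Tdg_KO and 263 CPM in Tdg_WT (ratio 0.682, 0.561 to 0.828). In Tdg_KO 1 barcode held 59.1% of the Arg1 UMIs, and without the highest barcode of each library the ratio was 0.335. Mmp12, the gene called higher, had 397 CPM in Tdg_KO and 222 CPM in Tdg_WT (ratio 1.78, 1.52 to 2.10), from 11 and 20 cells. Its direction turned under 6 of the other settings. Mrc1 had 119 CPM in Tdg_KO and 95.2 CPM in Tdg_WT, with an interval that holds 1. In monocyte-like cells 20.7% of barcodes in Tdg_KO and 6.35% in Tdg_WT held 3 or more T cell genes, and without barcodes holding 3 or more T, NK or B cell genes the ratio was 0.478 for Spp1, 0.153 for Arg1, 0.647 for Fn1 and 1.25 for Mmp12, which was then no longer called.

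Neutrophil-like cells had Cd44, Lgals3, Thbs1 and Spp1, and almost no Fn1 or Mrc1. Of the 6 genes with at least 50 UMIs, 2 were called lower and 0 higher in Tdg_KO, where 6.74% and 17.5% of the 4493 genes measured in this class were called. Lgals3 had 598 CPM in Tdg_KO and 1108 CPM in Tdg_WT (ratio 0.540, 0.486 to 0.599). Arg1 had 6 UMIs in Tdg_KO, all in 4 of 237 cells, and 74 UMIs in 31 of 685 cells in Tdg_WT (ratio 0.175, 0.0623 to 0.400). Thinned to 1000 UMIs, the share of cells with Arg1 was 1.22% (0.148 to 4.34) in Tdg_KO, beside 0.309% of T-like cells, and 2.82% (1.55 to 4.68) in Tdg_WT, beside 0.706% of T-like cells. Unthinned, it was 1.69% in Tdg_KO, beside 1.92% of T-like cells, and 4.53% in Tdg_WT, beside 2.31%. Median depth was 2192 UMIs in Tdg_KO and 1793 UMIs in Tdg_WT neutrophil-like cells, against 5928 and 5869 in T-like cells.

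Cd44 had 1126 CPM in Tdg_KO and 1030.1 CPM in Tdg_WT neutrophil-like cells (ratio 1.09, 1.01 to 1.19), and Thbs1 had 559.8 CPM in Tdg_KO and 455 CPM in Tdg_WT (ratio 1.23, 1.09 to 1.39). Spp1 had 235 CPM in Tdg_KO and 266 CPM in Tdg_WT (ratio 0.883, 0.737 to 1.05), and in Tdg_KO 1 barcode held 39.0% of it. Without the highest barcode of each library the ratio was 0.616 (0.493 to 0.764), and without barcodes holding 3 or more T, NK or B cell genes it was 1.27, so these cells gave no steady direction for Spp1. Mmp12 had 26 UMIs in Tdg_KO and 39 in Tdg_WT, with an interval that holds 1. The class joins a cluster led by S100a9 and S100a8 and one led by G0s2 and Slpi. Lgals3 was lower in Tdg_KO in both, with 1015 CPM in Tdg_KO and 2147 CPM in Tdg_WT in the cluster led by S100a9 (ratio 0.473, 0.374 to 0.591), and with 546 and 753 CPM in the other (ratio 0.726, 0.641 to 0.820). Cd44 had nearly the same level in the G0s2-led cluster, at 1226 CPM in Tdg_KO and 1234 CPM in Tdg_WT.

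Outside the phagocytes the 8 genes had separate homes. Ordered by level in Tdg_WT, Spp1 was highest in macrophage-like cells, then in tumour or stromal-like cells, basophil or mast-like cells (279.5 CPM), neutrophil-like cells and monocyte-like cells, of which the basophil or mast-like and neutrophil-like levels lay within counting error of each other. In basophil or mast-like cells 1 barcode held 72.1% of the Spp1 in Tdg_KO and 54.96% in Tdg_WT, and without it the levels were 169 CPM in Tdg_KO and 128 CPM in Tdg_WT, the second below the neutrophil-like and monocyte-like levels of Tdg_WT. In Tdg_KO it was highest in tumour or stromal-like cells, at 3322 CPM beside 1353 CPM in Tdg_WT. These were 20 cells in Tdg_KO and 18 in Tdg_WT, led by Clu and the keratins Krt8 and Krt18, with 1 barcode holding 45.4% and 39.8% of their Spp1. Without those barcodes the levels were 1959 CPM in Tdg_KO and 1013 CPM in Tdg_WT. Sorting on CD45 should leave out keratin-positive cells, and Ptprc was seen in 35.0% of these barcodes in Tdg_KO and 16.7% in Tdg_WT. In Tdg_KO 7 of the 20 barcodes held 3 or more T cell genes, and in Tdg_WT 3 of 18. Macrophage markers summed to 2343 CPM there in Tdg_KO and 23.7 CPM in Tdg_WT, and their part in the Spp1 level was not tested. These barcodes gave 27.8% of all Spp1 UMIs of Tdg_KO and 5.58% of those of Tdg_WT, with 1 UMI of Arg1 in each library.

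Arg1 outside phagocytes was highest in ILC2-like cells, type 2 innate lymphoid cells, at 304 CPM in Tdg_KO and 369.5 CPM in Tdg_WT (ratio 0.823, 0.613 to 1.10), with 1 UMI of Spp1 in each library. NK-like cells had the reverse, with Spp1 at 99.3 CPM in Tdg_KO and 123 CPM in Tdg_WT and Arg1 at 5.45 and 5.56 CPM. The ratio of Spp1 to Arg1 UMIs was 1.04 in Tdg_KO and 1.74 in Tdg_WT macrophage-like cells, 18.2 and 22.2 in NK-like cells, and 0.0114 and 0.00943 in ILC2-like cells. In NK-like cells 1 barcode gave 45.2% of the Spp1 UMIs in Tdg_KO and 55.6% in Tdg_WT.

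Lgals3 and Cd44 were broad. Lgals3 had 1011 CPM in Tdg_KO and 2640.3 CPM in Tdg_WT cDC1-like cells, and 1079 CPM in Tdg_KO and 1563 CPM in Tdg_WT cDC2-like cells, the conventional dendritic cells. Cd44 reached 703 CPM in Tdg_KO and 549 CPM in Tdg_WT plasmacytoid DC-like cells, and lay between 192 and 209 CPM in T-like and NK-like cells of both libraries. Among the named classes, Mmp12 beyond macrophage-like and monocyte-like cells was highest in cDC2-like cells, at 260.2 CPM in Tdg_KO and 183 CPM in Tdg_WT. These held 5.92% of all Mmp12 UMIs in Tdg_KO and 4.58% in Tdg_WT, while the unnamed mixed clusters held 46.2% and 22.8%. Most of the cDC2-like Mmp12 lay in a small cluster led by Dcstamp and Plet1, with 347 of 359 UMIs in 19 cells in Tdg_KO and 191 of 234 UMIs in 6 cells in Tdg_WT. Within that cluster Mmp12 was lower in Tdg_KO, at 1174 CPM beside 1820.0 CPM in Tdg_WT (ratio 0.645, 0.539 to 0.774), the other way from the class as a whole. The cluster led by Cd209a and Ifi205 had 12 UMIs in Tdg_KO and 43 in Tdg_WT (ratio 0.300, 0.144 to 0.579), and the remaining cluster had 0 in both. Thbs1 had 96 UMIs in Tdg_KO and 1 UMI in Tdg_WT plasmacytoid DC-like cells. In cDC2-like cells it had 72 UMIs in Tdg_KO and 6 UMIs in Tdg_WT. How many of these UMIs came from single barcodes is not given here, so both contrasts may rest on few cells. In the plasmacytoid DC-like cluster 38.5% of barcodes, both libraries together, held 3 or more genes each of T cells and phagocytes. The part of such barcodes in the Thbs1 level was not tested.

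**Figure D5:**
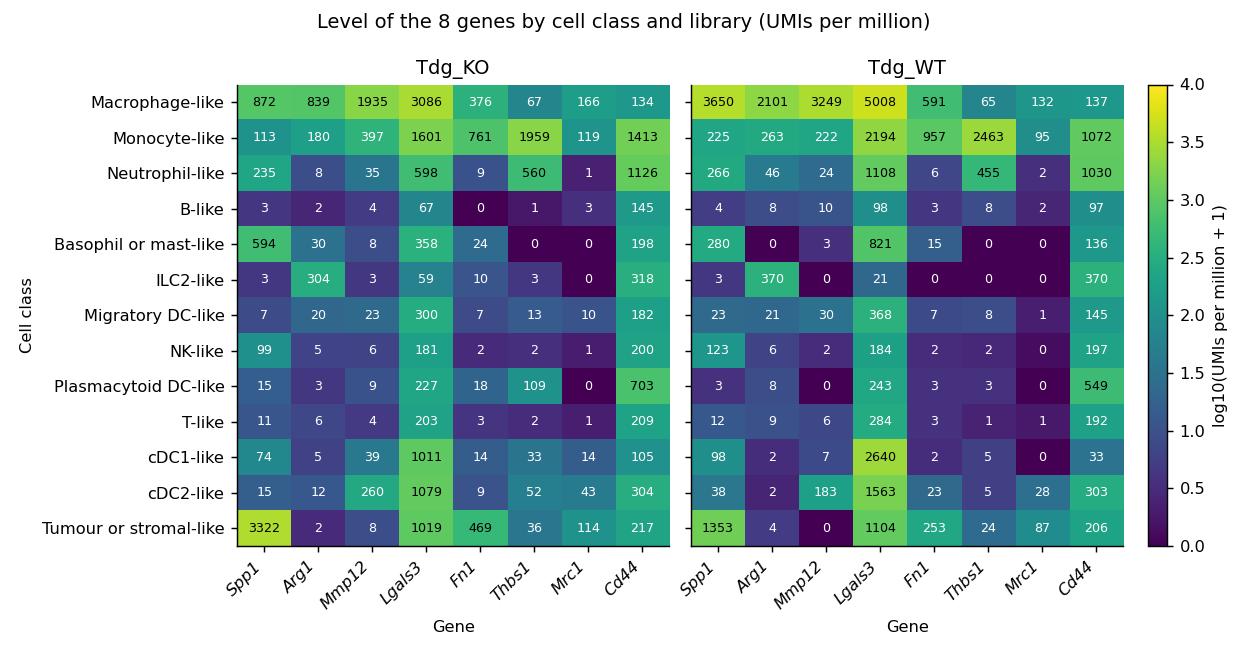
Level of each gene (columns) in 13 cell classes (rows), Tdg_KO left and Tdg_WT right. Numbers are CPM and colour is log10(CPM + 1). Mmp12 and Arg1 stand out in macrophage-like cells, Thbs1 in monocyte-like cells, and Spp1 in macrophage-like and tumour or stromal-like cells.

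The macrophage-like class held 14.6% of all Spp1 UMIs in Tdg_KO and 55.7% in Tdg_WT, and 36.1% and 57.9% of the Arg1 UMIs. The unnamed clusters of mixed T cell and phagocyte barcodes held 26.0% of the Spp1 and 39.4% of the Arg1 UMIs in Tdg_KO, beside 6.56% and 19.7% in Tdg_WT. For Thbs1 and Mrc1 these mixed clusters held 59.2% and 54.7% of the UMIs in Tdg_KO, and 37.8% and 40.1% in Tdg_WT. Over all deposited barcodes Spp1 had 5996 UMIs in Tdg_KO and 6135 in Tdg_WT. These counts are not scaled for depth, and the libraries held 52586319 and 39819010 UMIs. With the mixed clusters named by their markers, a choice made after the data were seen, the macrophage-like ratios were 0.201 for Spp1 and 0.282 for Arg1, and 6 of the 8 genes were called lower.

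Across the 13 classes, with levels as log2(CPM + 10) averaged over both libraries, the genes most like Spp1 were Camk1, Serf1, Gstm1, Sqor and Dync1i2, of 10664 genes, with a Pearson correlation of 0.959 for Camk1. For Arg1 they were Fabp4, F7, Stab1, Tfpi and Ptgr1, with 0.854 for Fabp4. Spp1 and Arg1 themselves had a correlation of 0.257 over the classes. The classes differ in depth and number of cells, and 13 points carry no test.

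Related genes were read from 7 lists in macrophage-like cells. Over all genes measured in this class 16.2% were called higher and 6.08% lower, and a list's count near those shares is no result about the list. Every gene called in these lists is named, some of them beyond the rule, after their values were seen. Of the receptors for osteopontin, fibronectin and thrombospondin, 7 of 13 were measured, 1 was called higher and 0 lower. Itgb5, an integrin beta chain, had 152 CPM in Tdg_KO and 66.3 CPM in Tdg_WT (ratio 2.29, 1.69 to 3.13). Cd47 and Itgb1, those with the most UMIs, had ratios of 0.912 and 1.04, and Itga4 1.41. Of the arginine and polyamine genes, 9 of 13 were measured, 3 were called higher and 2 lower. Slc7a2, an arginine transporter, had 52.2 CPM in Tdg_KO and 98.4 CPM in Tdg_WT (ratio 0.531), and Ass1, which with Asl rebuilds arginine from citrulline, had a ratio of 0.594. Odc1, which turns ornithine to putrescine, had a ratio of 1.65, Srm, the spermidine synthase, of 1.71 (0.991 to 3.02), and Azin1, an antizyme inhibitor, of 1.63 (0.954 to 2.86). Oaz1, an antizyme, and Sat1, which acetylates polyamines, had the most UMIs, with ratios of 0.958 and 1.28.

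Of the matrix proteases and their inhibitors, 11 of 23 were measured, 1 was called higher and 3 lower. Mmp9, a gelatinase, had 14 UMIs in Tdg_KO and 59 in Tdg_WT (ratio 0.223, 0.115 to 0.404). It is also among the 12 neutrophil markers used here, which summed to 640 CPM in Tdg_KO and 2154 CPM in Tdg_WT macrophage-like cells. The part of neutrophil RNA in its ratio was not tested. Plaur, the urokinase receptor, had a ratio of 0.627 and the metalloproteinase Adam8 of 0.630 (0.442 to 0.891). Adam17, a sheddase, had a ratio of 2.41, and the cathepsins Ctss and Ctsb, with the most UMIs, had ratios of 1.32 and 1.26. Of the matrix and matrix-associated genes, 6 of 18 were measured, 0 were called higher and 3 lower, with a median log2 ratio of -0.58. F13a1, factor XIII, had 38.2 CPM in Tdg_KO and 114 CPM in Tdg_WT (ratio 0.333), Vim, a filament protein of the cytoskeleton, had a ratio of 0.497, Ecm1 of 0.626, and Tgfbi of 1.35. F13a1 is also among the 8 monocyte markers used here, which summed to 404 CPM in Tdg_KO and 420 CPM in Tdg_WT macrophage-like cells.

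Of the galectins 4 of 8 were measured beside Lgals3, with 2 called higher and 1 lower. Lgals1 had 616 CPM in Tdg_KO and 1236 CPM in Tdg_WT (ratio 0.498, 0.451 to 0.550), while Lgals3bp, a ligand of galectin-3, had 166 CPM in Tdg_KO and 83.4 CPM in Tdg_WT (ratio 1.99, 1.51 to 2.63), and Lgals9 had a ratio of 1.51 (1.10 to 2.10). Of the scavenger and alternative activation genes 11 of 19 were measured, with 0 called higher and 1 lower. That gene was Ccl24, a chemokine for eosinophils, with 152 CPM in Tdg_KO and 536 CPM in Tdg_WT (ratio 0.283, 0.234 to 0.340). Fabp5 and Cd9 had ratios of 0.693 and 0.668. None of the 13 tumour and stromal genes reached 50 UMIs.

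In monocyte-like cells, where 10.6% of all genes measured were called higher and 5.12% lower, the same lists gave 3 higher and 1 lower of 11 receptors, 3 and 0 of 11 arginine and polyamine genes, and 1 and 2 of 12 protease genes. None of 7 matrix genes or 4 galectins was called, and 3 scavenger genes were called each way of 12. Of the receptors, Cd36 and Itgav had ratios of 2.97 and 2.59, and those with the most UMIs, Cd47 and Sdc4, of 0.872 and 1.57. Slc7a2 and Slc7a1, transporters of arginine, had ratios of 2.95 (1.72 to 5.22) and 2.63, so Slc7a2 lay on the other side of 1 from macrophage-like cells, while Oaz1 and Sat1 had 1.07 and 0.779. Odc1 had 467 CPM in Tdg_KO and 195 CPM in Tdg_WT (ratio 2.39, 2.03 to 2.82). Of the proteases, Ctsl had a ratio of 0.574, and Plaur and Ctss had ratios of 0.966 and 0.836. The matrix genes Vcan, Ecm1, Vim and Tgfbi had ratios of 0.848, 0.744, 1.04 and 0.900, and the galectin genes Lgals1, Lgals9 and Lgals3bp of 0.697, 1.15 and 1.39. Of the scavenger genes, Cd209a and Il10 had ratios of 7.41 and 3.66, Chil3 and Fabp5 of 0.605 and 0.845, and Ccl24, named after its value was seen, of 0.450.

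In neutrophil-like cells, where 17.5% of all genes measured were called higher and 6.74% lower, the counts were 2 higher and 1 lower of 7 receptors, 3 and 0 of 8 arginine and polyamine genes, and 1 and 1 of 10 protease genes. Of 4 matrix genes there 1 was called lower, of 3 galectins 0, and of 5 scavenger genes 1 each way. Of the receptors, Itgb7 and Itgav had ratios of 3.05 and 1.98, and Cd47 and Itgb1 of 1.14 and 1.08. Slc7a1 and Odc1 had ratios of 2.01 and 1.62, so Odc1 was called higher in all 3 classes, and Oaz1 and Sat1 had 0.979 and 0.706. Of the proteases, Mmp25 and Ctsl had ratios of 1.58 (0.923 to 2.66) and 0.540, and Ctsb and Ctsd of 0.732 and 1.06. The matrix genes Emilin2, Tgfbi, Vim and Tgm2 had ratios of 0.660, 0.749, 1.28 and 1.14, and Lgals1 and Lgals9 of 1.25 and 1.39. Retnla and Fabp5 had ratios of 3.32 and 0.633, and Cd9, with the most UMIs of the scavenger genes, of 0.807. Of the tumour and stromal genes Pecam1 was measured, with a ratio of 1.38 (0.756 to 2.45).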

How the data were processed

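Single-cell RNA was measured in 1 Tdg_KO and 1 Tdg_WT library (10x 3′ v3.1 kit, per the labels' protocols). The deposited matrices hold raw UMI counts per gene and barcode from Cell Ranger 6.0.1, per the file headers, already reduced to called cells. Seurat and the mm10 build are also listed, per the submitters' processing notes. How intronic or shared reads were counted is not given in the sources used here.

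Barcodes under 200 detected genes or over 10% mitochondrial UMIs were dropped. Counts were scaled to 10000 per cell. Cells were clustered from 2000 variable genes without the 8 genes, 30 principal components and 15 neighbours, at Leiden resolution 1. Clusters that best matched a macrophage, monocyte or dendritic cell marker set were then clustered again among themselves with the same settings. Variable genes were chosen anew for that round, which gave the macrophage-like and monocyte-like clusters and the proliferation-led one with macrophage markers. Both rounds together gave 33 clusters (scanpy 1.11.5, leidenalg 0.10.2, Python 3.11.15). Marker sets with at least 3 markers seen in 10% of a cluster's cells were scored by their mean level, scaled across clusters. The set with the highest score gave the name X-like, which named 23 clusters in 13 classes. The rest were left unnamed, for mixed barcodes, for leading genes of another type, of proliferation or of interferon response, or for Cd3e in many cells. No doublet caller was run, and 4 of the unnamed clusters were mixed ones. UMIs were summed per class and library. Intervals are exact 95% Poisson, Clopper-Pearson or conditional Poisson limits (scipy 1.17.1) and cover counting error only, and a count of 0 was bounded by 3 counts or, for shares, by the exact limit. No p-value was computed, since each group is 1 library. The calculation was tested on simulated data.

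The genes and lists were chosen with earlier results of these data known. Beside the 8 genes, the rule names the 2 genes of each list with the most UMIs, the 2 with the most extreme ratios, and the 5 genes most like Spp1 and Arg1. Other genes were named after their values were seen. A gene that the rule selects in monocyte-like cells is not reported here. Alternatives changed the cell filter, depth, weighting, clustering and class definition. Those on mixed, proliferating and single macrophage-like clusters were chosen after seeing the data. Of the 28 gene pairs, the alternatives were computed for the named pairs only.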

Additional observations from a re-analysis of the deposited data

Results flagged for a closer look

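Mmp12 lay on opposite sides of 1 in macrophage-like and monocyte-like cells, with a Tdg_KO over Tdg_WT ratio of 0.595 in macrophage-like and 1.78 in monocyte-like cells. With 1 library per group, the difference was not tested. The macrophage-like ratio was below 1 under all 16 other settings, between 0.396 and 0.898. In the unnamed cluster with macrophage markers led by proliferation genes, it was 1.76 (1.46 to 2.14) without the highest barcode of each library. The monocyte-like ratio rested on 11 cells with Mmp12 in Tdg_KO and 20 in Tdg_WT, and was below 1 under 6 of 11 other settings.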

How the results depend on the processing

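In macrophage-like cells the Spp1 ratio was below 1 and past 1.5-fold under all 16 other settings, between 0.178 and 0.608. It was 0.3002 with no cell filter, 0.179 with a stricter one, 0.194 thinned to 1000 UMIs, 0.193 with every cell weighted equally, 0.334 with a marker gate per barcode and 0.178 without the highest barcode. It was 0.201 with mixed clusters named, 0.312 with proliferating cells added, 0.283 in the C1qb-led and 0.608 in the Arg1-led cluster, and 0.535 with equal cluster weights. The Arg1 ratio was 0.508 thinned, 0.496 with equal cell weights, 0.453 with the gate, 0.282 with mixed clusters named, 0.437 with proliferating cells, 0.358 in the C1qb-led cluster and 0.746 with equal cluster weights, and turned to 1.001 in the Arg1-led cluster. Of the 8 genes, 3 were called lower with proliferating cells, 2 in the C1qb-led cluster, and 1 each in the Arg1-led cluster and with equal cluster weights. These counts use the ratio alone, without the minimum of 50 UMIs. By the ratio 1 gene, Thbs1, was higher under the stricter filter, with the 8 genes among the variable genes, at Leiden resolution 0.5 and 2, and in the Arg1-led cluster, where its 15 UMIs in Tdg_KO and 25 in Tdg_WT are too few for a call. Thbs1 was lower with the gate (0.404) and with mixed clusters named (0.605). Spp1 with Arg1 was seen in 17.9% of Tdg_KO and 42.8% of Tdg_WT cells unthinned, in 12.2% and 34.2% thinned, 13.02% and 33.0% with the gate, 8.90% and 19.8% in the C1qb-led and 61.2% and 69.1% in the Arg1-led cluster. The monocyte-like Mmp12 ratio turned to 0.0646 with no cell filter, 0.487 with a stricter one, 0.930 with equal cell weights, 0.0138 with the 8 genes among the variable genes, 0.575 at resolution 2 and 0.164 with the gate, and that of Spp1 to 1.17 with mixed clusters named. Apart from the settings that pick or weight clusters, whose construction changes which cells count, the cause was not tested. Resolution 0.5 gave no monocyte-like class. Of 262 other ratio values, 166 moved within counting error, 89 moved further and 7, all of called ratios, changed side. Crossings of 1 by ratios not called in the main setting are not among those 7. In macrophage-like cells Thbs1, Mrc1 and Cd44, with main ratios of 1.03, 1.26 and 0.976, were below 1 under 6, 5 and 10 of 16 other settings. In neutrophil-like cells Spp1, with a main ratio of 0.883, was below 1 under 9 of 13. No paired analysis was possible because each group is 1 library.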
